A study of Arabidopsis thaliana with 9 samples.

Results

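The genes described here are the 38 nuclear genes of Arabidopsis thaliana that encode the main antenna and core-associated subunits of the photosystems, taken by locus identifier from count tables of 33977 genes. They comprise 4 LHCA genes for the antenna of photosystem I, 14 LHCB genes for the antenna of photosystem II, 12 PSA genes for subunits of photosystem I and 8 PSB genes for subunits of photosystem II. All 38 had a row in every table, and all 38 were among the 19870 genes with enough counts to be tested. The RNA came from aboveground tissue of Col-0 plants at the bolting stage, in 3 groups of 3 libraries labelled as biological replicates. For all libraries the labels give a 12 h photoperiod, growth temperatures of 22 and 20 °C, and stratification at 4 °C for 2 days. Plants of the groups labelled dwarf and large both had the genotype PPD3-RNAi T+, an RNA interference transgene against PPD3 (AT1G76450), which encodes a PsbP domain protein of the chloroplast lumen, and differed by phenotype. The plants of the remaining group were wild type (WT), of the same ecotype. The labels give neither the promoter of the transgene, nor the number of transformed lines, nor whether plants were pooled, so p-values measure the spread between these libraries and that spread may be partly technical.

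Light is absorbed by chlorophyll bound to the antenna proteins and passed to the reaction centres of photosystems II and I, which work in series to move electrons from water to NADP. The antenna proteins (LHCA and LHCB) and many small subunits (PSA and PSB) are encoded in the nucleus and imported into the chloroplast, whereas the reaction centre proteins themselves are encoded in the plastid genome. In leaves, transcripts of the nuclear antenna genes are among the most abundant of all, and they are known to depend on light, the clock, the GLK transcription factors and signals from the plastid.

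Gene counts summed to between 34660392 and 35217754 per library, so depth was alike, and the 285 plastid and mitochondrial genes had 0 counts in all libraries, so the plastid-encoded subunits are not analysed here. The targeted gene PPD3 stood at 87.6, 128.4 and 96.5 CPM (counts made comparable by the library total and its scaling factor) in libraries 1, 2 and 3 labelled dwarf, at 86.7, 77.9 and 108.1 in those labelled large, and at 114.8, 100.3 and 91.1 in WT. The 3 groups overlapped, and the log2 fold changes of PPD3 against WT were 0.03 (SE 0.17, adjusted p = 0.934) for dwarf and -0.17 (SE 0.17, adjusted p = 0.708) for large by edgeR's quasi-likelihood test with Benjamini-Hochberg adjustment. PPD3 was thus not called lower in either group, and dwarf and large below are names from the labels. Dwarf 3 stood further from dwarf 1 and 2 than any other libraries of a group did from each other. The chi-square per gene between replicates was 59.2 to 184.1 within dwarf, 24.8 to 59.3 within large and 12.5 to 15.7 within WT, so no library was a repeat of another. Among the dwarf libraries, dwarf 3 stood nearest to the WT mean for 32 of the 38 genes, and among all 6 RNAi libraries for 13. The calls in dwarf against WT and the fold changes that moved most are also given without it.

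The 38 genes together took 11.6, 11.0 and 10.6% of all gene counts in WT 1, 2 and 3. Their share was 9.95, 7.83 and 9.61% in large 1, 2 and 3, and 6.18, 7.56 and 11.3% in dwarf 1, 2 and 3. Every large library lay below every WT library, dwarf 1 and 2 lay lower still or level with large 2, and dwarf 3 lay within the WT range. On the scale of CPM corrected by TMM factors, the summed level was 112500 ± 7204 (SD, n = 3) in WT, 90400 ± 13650 (SD, n = 3) in large and 84620 ± 31970 (SD, n = 3) in dwarf. The spread within dwarf came from sums of 59160, 74190 and 120500 CPM in its libraries 1, 2 and 3. In bulk tissue, fewer cells rich in chloroplasts and less of these transcripts per cell cannot be told apart.

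**Figure D1:**
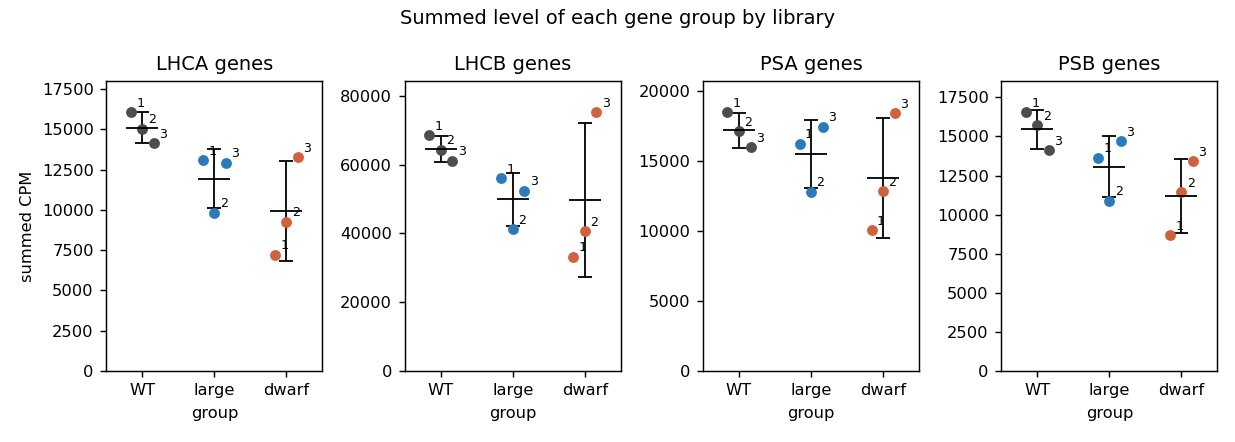
Summed CPM (vertical axis, from 0) of the 4 LHCA, 14 LHCB, 12 PSA and 8 PSB genes in each library, by group, with the replicate number beside each point and the mean ± SD (n = 3) as a bar. In each panel dwarf 1 is the lowest library, and in the LHCB panel dwarf 3, at 75360, is the highest, above WT 1 at 68690.

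The 4 gene groups followed the same order of group means. LHCA genes summed to 15090 ± 965.7 CPM in WT, 11940 ± 1842 in large and 9929 ± 3087 in dwarf (SD, n = 3 in each). LHCB genes, the bulk of the sum, stood at 64740 ± 3783, 49910 ± 7786 and 49740 ± 22500 CPM in the same order. PSA genes stood at 17180 ± 1252, 15470 ± 2413 and 13760 ± 4269 CPM, and PSB genes at 15460 ± 1244, 13070 ± 1971 and 11180 ± 2371 CPM. The LHCA and PSB sums of dwarf 1, 2 and 3 all lay below the lowest WT library, whereas the LHCB and PSA sums of dwarf 3 did not.

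Levels of different genes were compared as CPM per kb of exon. In WT, LHCB1.3 had the highest level of all genes tested, at 16490 CPM per kb, followed among the 38 by LHCB1.5 (8341), LHCB1.2 (4263), LHCA1 (4035) and LHCB5 (3901). Members took 9 of the 10 highest places in WT and 35 of the highest 100. The highest PSA gene was PSAL at 2877 CPM per kb and the highest PSB gene was PSBO1 at 3432, while the lowest of each were PSAH1 at 554.9 and PSBY at 679.9. LHCB4.3, at 29.04 CPM per kb and place 3546 in WT, stood far below the rest, the next lowest being LHCB2.3 at 257 and place 306. The lowest LHCA gene, LHCA2, had 1927 CPM per kb.

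Against WT, most of the genes had lower levels in both RNAi groups, but almost none passed the test. In dwarf, 34 of 38 log2 fold changes were negative, with a median of -0.56 and a range from -0.90 (LHCB2.3) to 0.31 (LHCB4.3), beside a median of 0.05 and 43.6% negative over all genes tested. A single member, PSAH1, fell at an adjusted p under 0.05 (edgeR's quasi-likelihood test, Benjamini-Hochberg over all genes), and 0 rose. Of all genes tested 8.76% were called in this comparison, 6.54% higher and 2.22% lower, so 1 of 38 is near the background. In 21 of the 38 all dwarf libraries lay below all WT libraries, against 12.2% of all genes, and 0 of the 38 lay wholly above, against 16.8% of all genes. Before adjustment, 18 of 38 had a p under 0.05, against 5214 of the 19870 genes tested.

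In large, 32 of 38 log2 fold changes against WT were negative, with a median of -0.35 and a range from -0.79 (LHCB2.3) to 0.31 (LHCB4.3), beside a median of 0.01 and 48.2% negative over all genes. By the same edgeR test 0 members were called, against 4.22% of all genes (0.327% lower). Before adjustment 2 members had a p under 0.05, against 3717 of the 19870 genes tested. The DESeq2 Wald test called 0 (1.89% of all genes lower). With limma voom and quality weights 9 were called, all lower (6.34% of all genes lower). In 25 of the 38 all large libraries lay below all WT libraries, against 13.9% of all genes. Both comparisons used the same WT libraries, so their signs are not independent of each other. Between dwarf and large 31 of 38 were negative, with a median of -0.20 beside 0.01 over all genes. The groups overlapped in all 38, against 11.2% of genes with dwarf wholly lower. In that comparison edgeR called 0 members, against 0.649% of all genes (0.377% lower). Before adjustment 1 member (PSAN) had a p under 0.05, against 3954 of the 19870 genes tested. The Wald test called 0 (3.86% of all genes lower) and voom 6, all lower (8.24%).

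**Figure D2:**
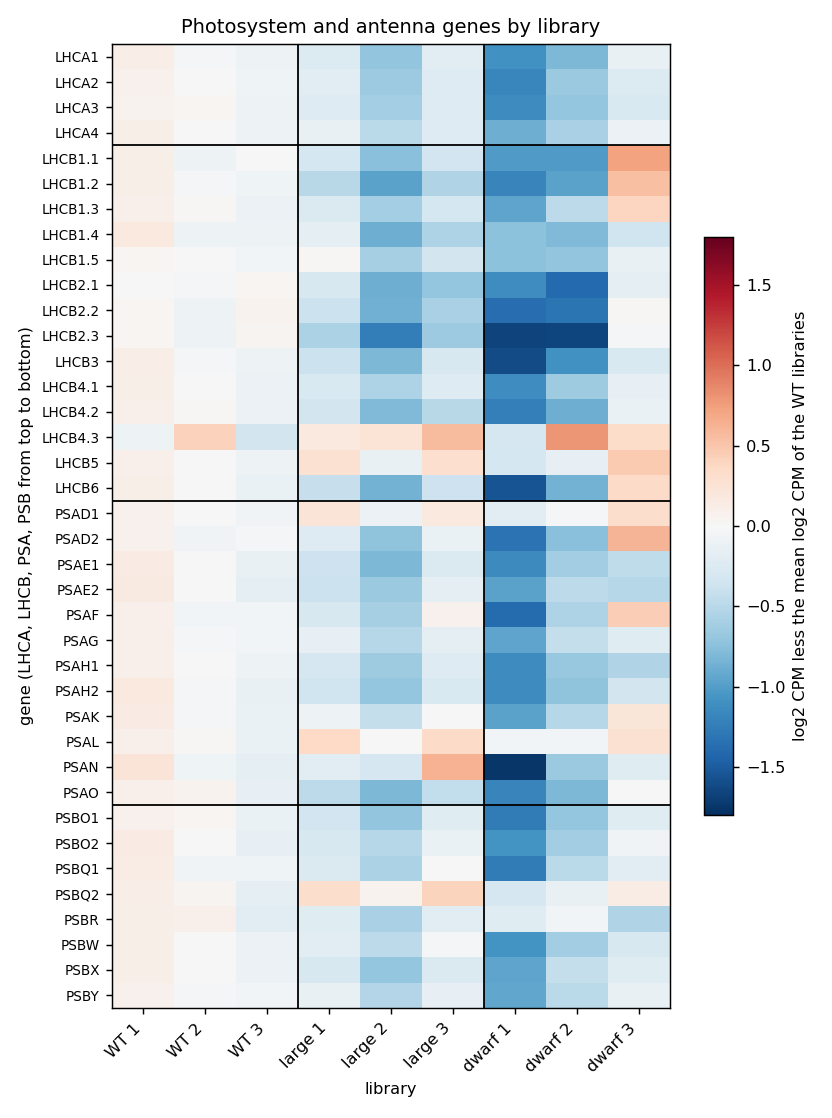
Log2 CPM of each gene (rows, by complex) in each library (columns), less the mean log2 CPM of the WT libraries, in colour from blue (lower) to red (higher). Dwarf 1, dwarf 2 and large 2 are blue in most rows, while dwarf 3 is mixed, from blue rows such as PSAH1 (-0.55), PSBR (-0.54) and PSAE2 (-0.52) to red rows such as LHCB1.1 (0.73) and PSAD2 (0.62).

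The libraries within each RNAi group differed. Dwarf 1 was the lowest of the 9 libraries for 33 of the 38 genes, with a median log2 ratio to the WT mean of -1.11. The medians were -0.65 in dwarf 2 and -0.14 in dwarf 3, and -0.26, -0.63 and -0.23 in large 1, 2 and 3. Across all genes tested the medians of the same 6 libraries lay between 0.00 and 0.04. Dwarf 2 and large 2 thus stood close together, although their phenotype labels differ, and the median of dwarf 3 was nearer 0 than that of any large library, over members that went both ways (-0.55 to 0.73). The members' median fold change against WT was -0.35 in dwarf without dwarf 1 and -0.23 in large without large 2. WT 1 was the highest library for 22 genes and dwarf 3 for 9.

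The 4 LHCA proteins form the belt of antenna at 1 side of photosystem I, LHCA1 with LHCA4 and LHCA2 with LHCA3. LHCA1 (AT3G54890) stood at 2404, 2929 and 4671 CPM in dwarf 1, 2 and 3, at 4323, 3144 and 4488 in large and at 5564, 5039 and 4808 in WT. LHCA3 (AT1G61520) stood at 1653, 2233 and 3001 CPM in dwarf, 3093, 2384 and 3077 in large and 3777, 3725 and 3393 in WT. For both genes, and for LHCA2 and LHCA4, every dwarf and every large library lay below the lowest WT library, and dwarf and large overlapped. Against WT the log2 fold changes in dwarf lay between -0.66 (LHCA3, SE 0.22, adjusted p = 0.103) and -0.49 (LHCA4, SE 0.21, adjusted p = 0.181) in edgeR's quasi-likelihood test. In large they lay between -0.37 (LHCA1, SE 0.26, adjusted p = 0.542) and -0.28 (LHCA4, SE 0.21, adjusted p = 0.571), and 0 of the 4 passed in either comparison, with 4 and 0 at an unadjusted p under 0.05. None passed the Wald test in large, and 2 of the 4, LHCA2 and LHCA3, did in dwarf (adjusted p 0.0292 and 0.0153). LHCA3 and LHCA4 also bounded the difference between dwarf and large, at -0.31 (SE 0.22) and -0.21 (SE 0.21).

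LHCB1, LHCB2 and LHCB3 proteins make up the trimers of the major antenna of photosystem II, and LHCB1 and LHCB2 are the proteins whose phosphorylation moves part of this antenna to photosystem I. LHCB1.3 (AT1G29930), the most abundant, stood at 10540, 14640 and 26550 CPM in dwarf 1, 2 and 3, at 16980, 13300 and 16260 in large and at 21510, 20550 and 18800 in WT. LHCB1.2 (AT1G29910) stood at 2276, 2657 and 7557 CPM in dwarf, 3675, 2671 and 3573 in large and 5608, 5112 and 4919 in WT. In dwarf 3 both were above every WT library, in dwarf 1 and 2 they were far below, and the large libraries lay below WT without overlap. LHCB1.2 had the highest log2 fold change of an LHCB gene between dwarf and large, 0.33 (SE 0.41, adjusted p = 0.694 by edgeR's quasi-likelihood test).

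The LHCB1 genes did not share this pattern across loci. LHCB1.1, LHCB1.2 and LHCB1.3 lie side by side on chromosome 1 (chr1:10472280-10479114), and all 3 were highest in dwarf 3. LHCB1.4 (AT2G34430) and LHCB1.5 (AT2G34420) lie side by side on chromosome 2, and there dwarf 3 lay below WT. LHCB1.4 stood at 2061, 1984 and 2678 CPM in dwarf, 3045, 1860 and 2329 in large and 3866, 3230 and 3225 in WT, so that neither RNAi group overlapped WT. LHCB1.5 lies wholly within annotated genes of the opposite strand (AT2G34410 and AT2G08665), so its count is uncertain without strand.

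LHCB2 genes were among those furthest below WT. LHCB2.3 (AT3G27690) stood at 118.6, 119.6 and 365.6 CPM in dwarf 1, 2 and 3, at 254.7, 158.4 and 239.2 in large and at 385, 354.1 and 390.6 in WT. Dwarf 1 and 2 were at about the same low level, dwarf 3 lay inside the WT range, and every large library was below WT. Its log2 fold changes, -0.90 (SE 0.41, adjusted p = 0.204) in dwarf and -0.79 (SE 0.41, adjusted p = 0.360) in large by edgeR's quasi-likelihood test, were the most negative of the 38 in both comparisons. LHCB2.1 and LHCB2.2 stood at -0.79 and -0.74 in dwarf and at -0.60 each in large. Without dwarf 3 the values in dwarf were -1.25 for LHCB2.1, -1.34 for LHCB2.2 and -1.66 for LHCB2.3. LHCB2.1 and LHCB2.2 share 10.7 and 13.7% of their 100 bp stretches with each other, and 37.6% of LHCB2.3 is overlapped by AT3G27700, so the counts of the single LHCB2 genes are uncertain. LHCB3 (AT5G54270), whose protein occurs in trimers with the other two, stood at 1503, 2170 and 3810 CPM in dwarf, 3510, 2630 and 3763 in large and 4984, 4521 and 4316 in WT, without overlap between WT and either group. Its log2 fold change was -0.89 (SE 0.32, adjusted p = 0.116) in dwarf against WT, and -0.40 (SE 0.31, adjusted p = 0.503) between dwarf and large, the most negative of the LHCB genes there.

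LHCB4, LHCB5 and LHCB6 encode the monomeric antenna proteins that sit between the trimers and the core of photosystem II. LHCB4.1 (AT5G01530) stood at 1867, 2626 and 3672 CPM in dwarf, 3354, 2769 and 3477 in large and 4380, 4062 and 3798 in WT, again with both RNAi groups below WT. LHCB4.3 (AT2G40100) had the highest fold change of the 38 against WT, 1 of 4 that were positive in dwarf and of 6 in large. It stood at 33.3, 70.9 and 51.9 CPM in dwarf, 46.5, 48.5 and 61.1 in large and 38.6, 55.0 and 32.6 in WT, and the groups overlapped. Its log2 fold change was 0.31 (SE 0.28) in both comparisons, with adjusted p of 0.524 in dwarf and 0.655 in large. LHCB4.2 stood with LHCB4.1, at -0.67 (SE 0.27) in dwarf and -0.53 (SE 0.27) in large.

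Promoter sequence is shown for the gene with the most negative fold change, LHCB2.3, and for 2 genes of the LHCB4 subunit that stood apart, LHCB4.1 and LHCB4.3. Each is the 250 bases before the annotated start, written 5′ to 3′ along the gene, from the RefSeq annotation of the TAIR10.1 assembly. Capitals mark a G-box (CACGTG), a motif spelled CCAATC or a TATA box (TATAAA), on either strand.
LHCB2.3 (chr3:10255656-10255905, plus strand): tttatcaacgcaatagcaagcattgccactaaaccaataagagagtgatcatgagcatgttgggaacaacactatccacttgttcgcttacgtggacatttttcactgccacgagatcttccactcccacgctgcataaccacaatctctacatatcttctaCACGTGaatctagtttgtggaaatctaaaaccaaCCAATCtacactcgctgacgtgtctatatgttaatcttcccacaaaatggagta
LHCB4.1 (chr5:208616-208865, plus strand): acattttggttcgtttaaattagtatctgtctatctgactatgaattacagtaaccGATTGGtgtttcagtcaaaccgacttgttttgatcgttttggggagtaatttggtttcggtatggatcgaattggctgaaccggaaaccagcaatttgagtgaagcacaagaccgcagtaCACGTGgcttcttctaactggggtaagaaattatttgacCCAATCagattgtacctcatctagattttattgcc
LHCB4.3 (chr2:16745378-16745627, plus strand): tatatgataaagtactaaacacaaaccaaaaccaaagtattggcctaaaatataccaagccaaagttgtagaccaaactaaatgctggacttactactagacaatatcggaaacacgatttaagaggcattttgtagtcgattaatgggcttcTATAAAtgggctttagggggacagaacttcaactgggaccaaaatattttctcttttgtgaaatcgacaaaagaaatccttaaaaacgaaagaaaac
The window of LHCB2.3 holds a G-box that begins 88 bases before the start and a CCAATC motif at 54 bases. That of LHCB4.1 holds a G-box at 74 bases and CCAATC motifs at 35 and 194 bases. The window of LHCB4.3 holds none of these motifs other than a TATA box at 97 bases. Over the 38 windows a G-box occurred in 8 (21.1%, against 6.49% of 27443 protein-coding genes), the CCAATC motif in 11 (28.9% against 10.2%), an I-box (GATAAG) in 9 (23.7% against 12.3%) and the CCA1 binding site (AAAAATCT) in 5 (13.2% against 6.69%). A TATA box occurred in 16 (42.1% against 47.3%). LHCB4.2, whose fold changes stood with those of LHCB4.1, has no G-box in its window, which holds an I-box, a CCAATC motif and a TATA box. Some of the 38 windows reach into a neighbouring gene, but those printed do not. A match describes letters only.

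PSA genes encode the small subunits of photosystem I. PSAH1 (AT3G16140), 1 of 2 genes for the PSAH subunit where phosphorylated antenna docks, was the member that fell in dwarf. It stood at 330, 447 and 492.9 CPM in dwarf 1, 2 and 3, at 586.6, 461.2 and 612.5 in large and at 763.9, 725 and 675.3 in WT. Every RNAi library lay below every WT library, and dwarf and large overlapped only through large 2. The log2 fold change was -0.77 (SE 0.17, adjusted p = 0.029, edgeR's quasi-likelihood test) in dwarf and -0.38 (SE 0.17, adjusted p = 0.274) in large. The call was lost with only dwarf and WT in the fit (adjusted p = 0.0667), with the replicate number as a block (0.0532), and without dwarf 2 (0.0625), large 1 (0.0525), WT 1 (0.112), WT 2 (0.101) or WT 3 (0.0649), at fold changes of -0.82 to -0.73 in those fits. PSAH2, the other gene of the subunit, stood at -0.70 (SE 0.20, adjusted p = 0.0687) in dwarf and -0.44 (SE 0.20) in large. An annotated gene of the opposite strand, AT3G16130, overlaps 49.0% of PSAH1, so its count is uncertain.

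The promoter of PSAH1 is shown because it is the gene that passed the test, with a TATA box on the reverse strand (TTTATA, in capitals) as the only searched motif, 224 bases before the start.
PSAH1 (chr3:5469595-5469844, minus strand): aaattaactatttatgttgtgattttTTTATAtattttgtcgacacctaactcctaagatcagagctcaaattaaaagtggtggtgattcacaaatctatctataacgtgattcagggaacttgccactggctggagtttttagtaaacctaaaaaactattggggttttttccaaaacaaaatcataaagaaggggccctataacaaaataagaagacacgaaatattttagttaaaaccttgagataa
PSAH2, which had a similar fold change, holds 2 G-boxes and an I-box in the same window, so the 2 genes of this subunit share no searched motif other than the TATA box. Of the 250 bases of the PSAH2 window, 218 lie within the neighbouring gene AT1G52220, so its motifs may belong to that gene.

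Of the other PSA genes, PSAE1 and PSAE2, for a subunit at the stromal side where ferredoxin binds, stood at -0.72 (SE 0.21, adjusted p = 0.067) and -0.64 (SE 0.18, adjusted p = 0.0559) in dwarf by edgeR's quasi-likelihood test, with no overlap between either RNAi group and WT. PSAO (AT1G08380), which helps to bind the mobile antenna, stood at 988.7, 1296 and 2250 CPM in dwarf, 1641, 1294 and 1664 in large and 2410, 2363 and 2039 in WT. Its large libraries lay below WT, and its fold change in large, -0.57 (SE 0.28, adjusted p = 0.325), was the most negative of the PSA genes. Dwarf 3 lay inside the WT range. PSAL (AT4G12800), which with PSAH forms the docking site, stood at 3149, 3170 and 3970 CPM in dwarf, 4201, 3279 and 4160 in large and 3496, 3335 and 3008 in WT. It overlapped between all groups and had the highest PSA fold change in both, 0.06 (SE 0.17) in dwarf and 0.24 (SE 0.17) in large.

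PSAN (AT5G64040), of a lumenal subunit that takes part in docking plastocyanin, stood at 212.1, 449.3 and 611.6 CPM in dwarf, 628.6, 577.2 and 1103 in large and 839, 679.4 and 639.4 in WT. Dwarf lay below WT without overlap, large 3 was the highest library of all, and dwarf 3 overlapped with large. The log2 fold change between dwarf and large was -0.86 (SE 0.38, unadjusted p = 0.0484, adjusted p = 0.246, edgeR's quasi-likelihood test), the most negative of the 38 in that comparison, and -0.51 without large 3. PSAD2, of the stromal subunit PSAD, was the only PSA gene with a positive difference between dwarf and large, 0.08 (SE 0.42), and that sign turned with the replicate block (-0.06), with voom (-0.47) and with the local step taken out (-0.22).

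The PSB genes encode the extrinsic proteins that shield the manganese cluster of photosystem II on its lumenal side (PSBO and PSBQ), PSBR, which helps to hold them, and the small membrane subunits PSBW, PSBX and PSBY. PSBO1 (AT5G66570), of the manganese-stabilising protein, stood at 2153, 3201 and 4443 CPM in dwarf, 4056, 3154 and 4434 in large and 5457, 5302 and 4765 in WT. Both RNAi groups were below WT, and the log2 fold changes of -0.66 (SE 0.26, adjusted p = 0.150) and -0.42 (SE 0.26, adjusted p = 0.475) by edgeR's quasi-likelihood test were the most negative of the PSB genes. PSBW stood at 766.6, 1050 and 1331 CPM in dwarf, 1421, 1165 and 1595 in large and 1738, 1615 and 1509 in WT. Dwarf was below WT throughout, large 3 was not, and the difference between dwarf and large was -0.41 (SE 0.21, adjusted p = 0.312). PSBX and PSBY stood at -0.50 and -0.48 in dwarf and at -0.40 and -0.26 in large, with no overlap between WT and either group.

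PSBQ2 (AT4G05180) and PSBR (AT1G79040) did not follow. PSBQ2 stood at 1668, 1890 and 2256 CPM in dwarf, 2581, 2169 and 2734 in large and 2250, 2137 and 1834 in WT, with overlap in both comparisons. Its log2 fold changes, -0.10 (SE 0.17) in dwarf and 0.27 (SE 0.17) in large, were the highest of the PSB genes against WT. PSBR stood at 2180, 2444 and 1738 CPM in dwarf, 2166, 1678 and 2213 in large and 2715, 2679 and 2212 in WT, so that dwarf 3, for most members the dwarf library nearest to WT, was the lowest dwarf library here.

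**Figure D3:**
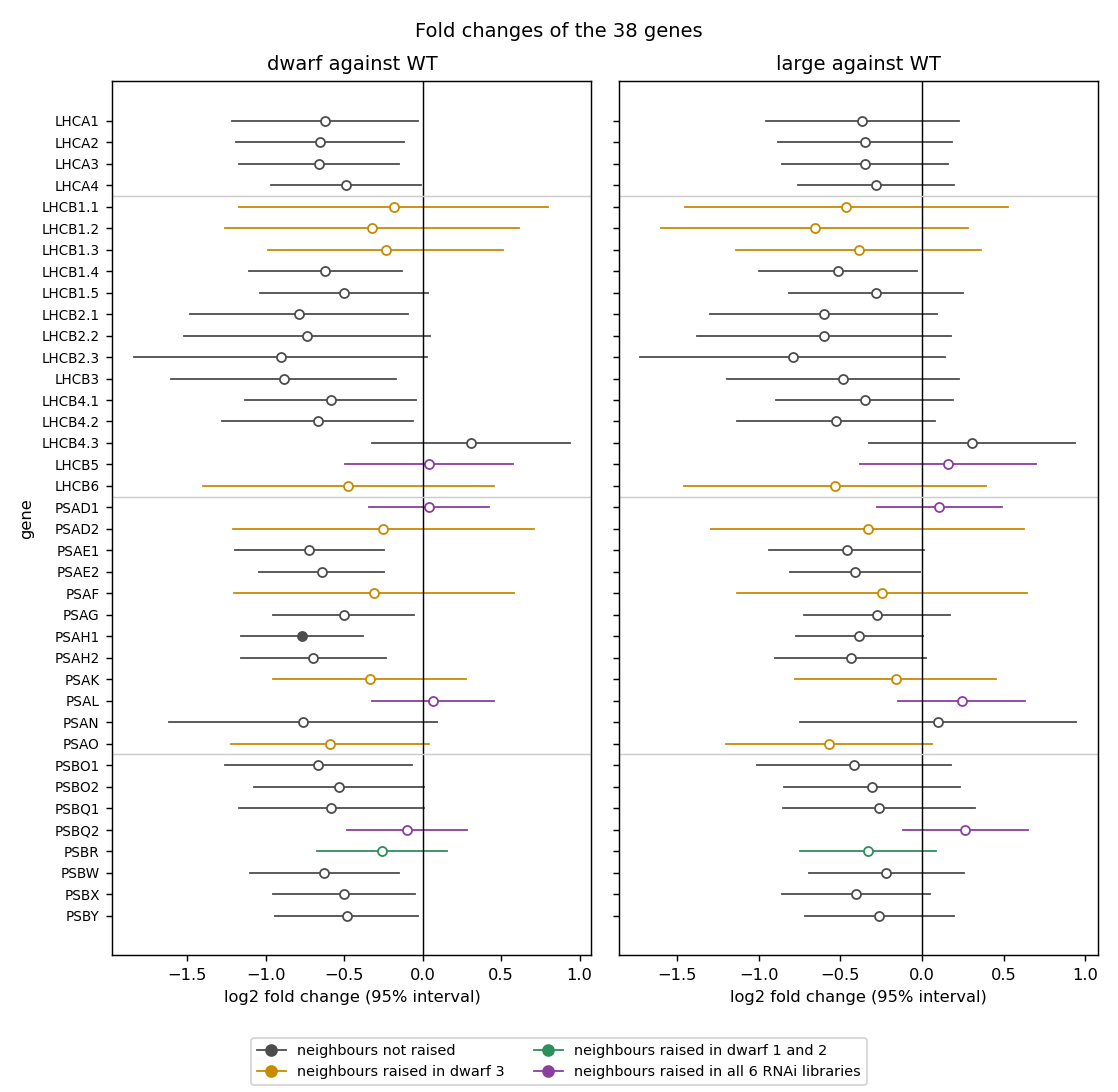
Log2 fold change against WT (horizontal axis) of each gene, with its 95% interval, in dwarf (left) and large (right), coloured by the state of its chromosome neighbours. The filled point is PSAH1, the gene that passed the test, and points at or above 0 are LHCB4.3, PSAN in large, and genes whose neighbours were raised in all 6 RNAi libraries.

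Of the members with positive fold changes against WT, LHCB5, PSAD1 and PSAL (both groups) and PSBQ2 (large) lay in a run of raised genes along chromosome 4, and LHCB4.3 (both groups) and PSAN (large) did not lie in such a run. For each library and member, the median log2 ratio to the WT mean was taken over the 50 tested genes on each side, members left out, and is called the local step. A member was classed as raised in a library when its neighbours stood at a ratio of at least 1.25, a threshold chosen after the values were seen. The values fell well apart, at 1.35 or more and at 1.11 or less. PSAD1, PSBQ2, LHCB5 and PSAL, all on the first part of chromosome 4, had raised neighbours in all 6 RNAi libraries, at ratios of 1.42 to 1.52 and of 1.90 to 2.08 in dwarf 1. LHCB1.1, LHCB1.2, LHCB1.3, LHCB6, PSAD2, PSAF, PSAK and PSAO, on the first part of chromosome 1, had raised neighbours in dwarf 3 alone among the 9 libraries, at 1.35 to 1.48. PSBR, near the end of chromosome 1, had raised neighbours in dwarf 1 and 2, at 1.41 and 1.42. The other 25 members had none.

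Members stood high in the libraries in which their neighbours stood high. In each library the log2 ratio to WT of each member was set against the median of the members with no raised neighbours. In all 34 pairs of a member and a library with raised neighbours the member lay above that median, by 0.61 in the median (0.20 to 1.07), where the neighbours' own log2 ratio had a median of 0.56 (0.43 to 1.06). In the 5 such pairs of dwarf 1 it was 0.91. The 34 pairs are not independent of each other, as members of a run can share neighbours and some members recur across libraries. In the 194 other pairs the median was -0.002, and 90 lay above 0. Most of these pairs were of the members that set the subtracted median, so a value near 0 was fixed by construction. Of the 8 genes with raised neighbours in dwarf 3, 7 were highest in dwarf 3 of all 9 libraries and 8 were lowest in dwarf 1.

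**Figure D4:**
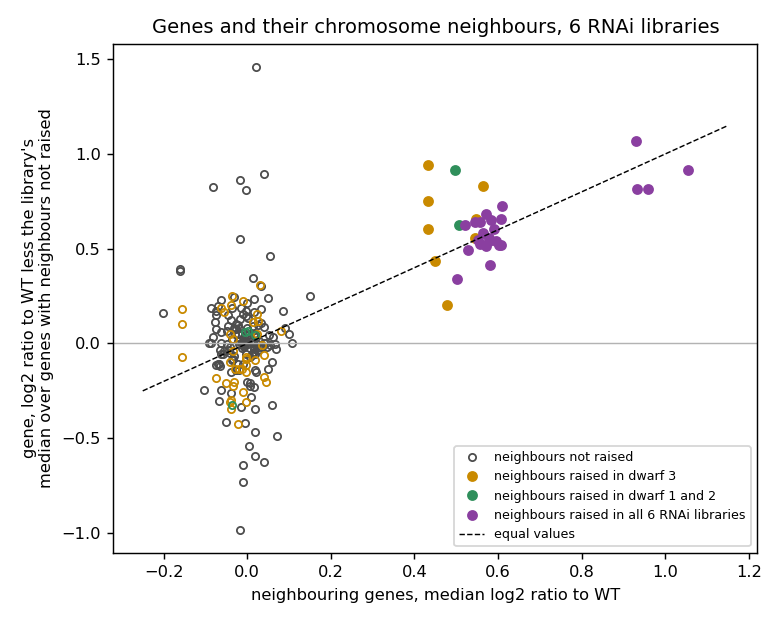
For each member in each of the 6 RNAi libraries, the median log2 ratio to WT of its chromosome neighbours (horizontal axis) and the member's own log2 ratio less that library's median over members with no raised neighbours (vertical axis). Filled points are libraries in which the neighbours of that member were raised, and colours give the class of the member. The dashed line marks equal values, and the 34 filled points lie between 0.20 and 1.07 on the vertical axis, above 0. The open points spread around 0, as most of them set the median that was subtracted.

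The local step was also taken out as an offset in the fit. In dwarf against WT the fold changes of the 4 chromosome 4 members were -0.10 to 0.06 as measured and -0.74 to -0.58 with the step taken out. In large they were 0.11 to 0.27 and became -0.46 to -0.32. The offset lowers the fold changes of members with raised neighbours by construction, so the counts of negative values below follow in part from it. For the 25 members with no raised neighbours, the medians as measured were -0.64 in dwarf and -0.37 in large. Over all 38, 37 were negative in dwarf (median -0.61) and 36 in large (median -0.38) with the step taken out, LHCB4.3 being positive in both and PSAN in large. PSAH1 remained the only member called in dwarf (-0.78, adjusted p = 0.0437, edgeR's quasi-likelihood test), and 0 were called in large, where 298 genes in all were. The targeted gene PPD3 stood at -0.30 (adjusted p = 0.413) in dwarf and -0.16 (adjusted p = 0.751) in large in this fit, so that its sign in dwarf turned. What raised these runs of genes was not tested.

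The dwarf 3 library is where the classes part. The 25 members with no raised neighbours summed to 27880, 35020 and 50940 CPM in dwarf 1, 2 and 3, to 50270, 36940 and 48560 in large and to 62280, 58070 and 55240 in WT. For these 25 every RNAi library, dwarf 3 included, lay below the lowest WT library. The 8 members raised in dwarf 3 summed to 18380, 25020 and 51880 CPM in dwarf, 31170, 24000 and 31110 in large and 41410, 38780 and 36310 in WT, so that dwarf 3 lay above all. Of the 25, all dwarf libraries lay below all WT libraries in 21 and all large libraries in 19, against 12.2 and 13.9% of all genes. Of the 13 with raised neighbours this held in 0 in dwarf and in 6 in large.

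Where a subunit is encoded by several genes, the share of each gene in the subunit's transcripts was taken on the scale of CPM per kb. PSAD1 (chromosome 4) held 71.5 ± 0.7% of PSAD transcripts in WT (SD, n = 3), against 77.6, 79.3 and 75.5% in large 1, 2 and 3 and 84.5, 80.7 and 67.1% in dwarf 1, 2 and 3. All large libraries, dwarf 1 and dwarf 2 lay above WT, and dwarf 3, where the neighbours of PSAD2 were raised as well, lay below it. PSBQ2 held 57.7 ± 1.7% of PSBQ transcripts in WT (SD, n = 3), 67.2, 68.1 and 64.4% in large and 72.6, 63.6 and 63.0% in dwarf, above WT in all 6. The mean shares of PSAE1, PSAH1 and PSBO1, in pairs with no raised neighbours, were 66.3, 41.1 and 79.8% in WT, 65.4, 42.0 and 78.4% in large and 64.9, 40.1 and 78.2% in dwarf. The PSBO1 shares of dwarf 1, 2 and 3 (77.54, 79.02 and 78.01%) lay below those of WT 1, 2 and 3 (79.06, 80.22 and 80.1%). Within LHCB1, dwarf 3 had the highest shares of LHCB1.1 and LHCB1.2 and the lowest of LHCB1.4 and LHCB1.5: LHCB1.2 had 14.9% against 12.5 ± 0.2% in WT (SD, n = 3) and LHCB1.5 had 18.3% against 24.4 ± 0.7%. The share of LHCB1.3, in the same run as LHCB1.2, was highest in dwarf 2 (54.3%) and not in dwarf 3 (52.1%), against 48.3 ± 0.8% in WT (SD, n = 3). Shares also differed where no neighbours were raised. LHCB4.3 held 0.66 ± 0.17% of LHCB4 transcripts in WT, 1.08 ± 0.16% in large and 1.28 ± 0.46% in dwarf (SD, n = 3 in each), and every RNAi library lay above WT. LHCB4.2 held 33.3 ± 0.28% in WT and 30.4 ± 1.9% in large (SD, n = 3 in each), every large library lying below WT. With 3 libraries a group an exact permutation test cannot go below p = 0.10, so no test is given for shares.

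**Figure D5:**
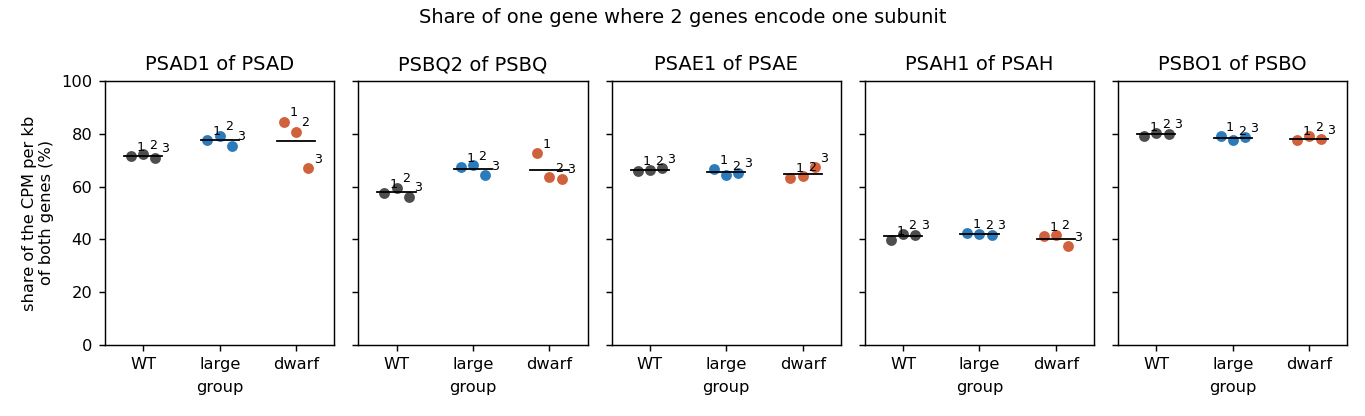
Share (%, from 0 to 100) of PSAD1, PSBQ2, PSAE1, PSAH1 and PSBO1 in the CPM per kb of the 2 genes for that subunit, by library, with the group mean as a line. PSAD1 and PSBQ2, on chromosome 4, are above WT in the large group and in dwarf 1 and 2, while the group means of PSAE1, PSAH1 and PSBO1 lie within 2 percentage points of WT.

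Without dwarf 3, far more members passed in dwarf against WT. Then 30 of 38 were called, all lower, at log2 fold changes from -1.66 (LHCB2.3) to -0.67 (PSBX) and adjusted p from 0.00219 to 0.0486 (edgeR's quasi-likelihood test with Benjamini-Hochberg adjustment). Over all genes 7.92% were called lower without dwarf 3. For 32 of the 38 members dwarf 3 was the dwarf library nearest to the WT mean, so leaving it out was bound to move most fold changes further from 0. The rise in calls thus follows in part from which library was left out. Leaving out any other single library gave 0 or 1 member called. The 30 included 23 of the 25 members with no raised neighbours, LHCB4.3 and PSAN being the exceptions. LHCB5, PSAD1, PSAL, PSBQ2, PSBR and LHCB1.3 were the other members not called. limma voom with quality weights, which kept all libraries and gave dwarf 3 a weight of 0.16 and dwarf 1 a weight of 0.37 (0.72 to 2.82 for the rest), also called 30, of which 29 were the same genes, against 8.07% of all genes called lower. Without dwarf 3, 16 members had fold changes further below 0 by over 1.5 times. PSBR was nearer 0 (-0.13 in place of -0.26), and LHCB5, PSAD1 and PSAL turned negative (-0.23, -0.11 and -0.06). The DESeq2 Wald test called 12, against 5.65% lower of all genes. The number of members called thus ran from 0 to 30 with the library left out and the tool, while the median fold change stayed between -0.87 and -0.35.

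The next 3 lists of other pathway genes had medians nearer to 0 than the 38 members, in dwarf and in large against WT. Of 19 genes of chlorophyll synthesis 15 were negative in dwarf, with a median of -0.13, and 0 were called by edgeR, 0 also having an unadjusted p under 0.05. PORB (protochlorophyllide reductase) stood at -0.47 (SE 0.29) and HEMB1 (an early enzyme) at 0.22 (SE 0.12), or -0.14 with the local step taken out. Of 11 genes of electron transport and ATP synthase 6 were negative, with a median of -0.002, and 0 were called, 2 having an unadjusted p under 0.05. With the local step taken out 9 of the 11 were negative, with a median of -0.27, and in large the median went from 0.22 to -0.09. ATPC1, the gamma subunit of ATP synthase, stood at 0.50 (SE 0.15, adjusted p = 0.077) and at -0.16 with the local step taken out, and PETE1, a plastocyanin, at 0.32 (SE 0.13) and 0.04. Of 12 genes for antenna insertion and photosystem assembly 10 were negative, with a median of -0.16 and 0 called or under 0.05 unadjusted. LQY1 and HCF136, both needed for photosystem II assembly or repair, stood at -0.36 (SE 0.18) and -0.36 (SE 0.19), or -0.63 and -0.39 with the local step taken out. In large, 0 genes of these 3 lists were called, with 1, 2 and 0 under 0.05 unadjusted and medians of -0.20, 0.22 and -0.13.

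Of 8 minor antenna and photosystem II genes outside the 38, 6 were negative in dwarf and 0 were called by edgeR, with 2 under 0.05 unadjusted. PSBTN, a small lumenal subunit, stood at -0.91 (SE 0.27, adjusted p = 0.0684) and LHCB7, a rare antenna protein, at 0.38 (SE 0.17, adjusted p = 0.186), or 0.003 with the local step taken out. Among the 3 genes that phosphorylate or dephosphorylate the antenna, 0 were called, with 1 under 0.05 unadjusted. The kinase gene STN7 stood at 0.32 (SE 0.14), or -0.01 with the local step taken out, and the phosphatase gene TAP38 at -0.13 (SE 0.09). Of 9 clock genes 0 were called, with 2 under 0.05 unadjusted, and PRR7 stood at -0.43 (SE 0.15) and GI at 0.35 (SE 0.12), or -0.38 and 0.23 with the local step taken out.

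Of 8 regulators of photosynthesis genes, 1 fell and 1 rose in dwarf. GLK1, a transcription factor known to activate antenna and chlorophyll genes, stood at 208.2, 213.5 and 212.2 CPM in dwarf 1, 2 and 3, at 239.4, 208.2 and 247.2 in large and at 306.6, 332.4 and 266.5 in WT. All 6 RNAi libraries lay below WT, and unlike most of the 38 the level in dwarf 3 did not stand above that in dwarf 1 and 2. The other GLK gene, GLK2, stood at 60.4, 49.7 and 98.8 CPM in dwarf, 93.5, 63.6 and 63.2 in large and 107.7, 104.3 and 104 in WT. For GLK2 all 6 RNAi libraries also lay below WT, but dwarf 3 was the dwarf library nearest to WT. GLK2 was not called in dwarf or large against WT. GLK1 fell by 0.51 on the log2 scale (SE 0.11, adjusted p = 0.0255, edgeR's quasi-likelihood test) in dwarf. With the local step taken out it stood at -0.40 (adjusted p = 0.0751). CGA1, a GATA factor linked to chloroplast development, rose by 0.94 (SE 0.22, adjusted p = 0.0371), from a low level of 2.96 ± 0.25 CPM in WT to 5.66 ± 1.36 in dwarf (SD, n = 3 in each). Neither was called in large.

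Markers of other states and tissues were read in the same libraries. The 8 genes of senescence and chlorophyll breakdown summed to 834.5, 443.5 and 328.2 CPM in dwarf 1, 2 and 3, to 408.3, 745.9 and 593.4 in large and to 381.1, 446.2 and 367.1 in WT. Dwarf 1 and large 2, the lowest library of each RNAi group for the 38 genes, had the highest sums, and 0 of the 8 were called in dwarf by edgeR, with 2 under 0.05 unadjusted. SAG12, a marker of late senescence, stood at 62.4, 9.53 and 0.15 CPM in dwarf, 3.47, 7.91 and 0.76 in large and 0.56, 1.14 and 0.09 in WT (adjusted p = 0.0849 in dwarf). NYC1, which degrades chlorophyll b, stood at 0.88 (SE 0.34, adjusted p = 0.146) and at 0.22 with the local step taken out. The part of senescence in the levels of the 38 genes was not tested.

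The 8 markers of stem xylem summed to 66.0, 70.9 and 113.6 CPM in dwarf 1, 2 and 3. Their sums were 115.2, 115.8 and 106.5 in large 1, 2 and 3, and 109.2 to 116.4 in WT. Dwarf 1 and 2 were thus low and dwarf 3 was level with WT, as in the sum of the 38. This likeness did not hold in large, where large 2 had the lowest sum of the 38 (74660 CPM) and the highest of these markers. All 8 were negative in dwarf, and the protease gene XCP1 fell by 0.76 on the log2 scale (SE 0.12, adjusted p = 0.00992, edgeR's quasi-likelihood test), with COBL4 at -0.89 (adjusted p = 0.0614). Of the 6 markers of dividing cells, CYCB1;1 (0.68, adjusted p = 0.0397) and CDKB2;1 (0.59, adjusted p = 0.0441) rose in dwarf, and sums were 83.0 to 109.6 CPM in dwarf, 94.1 to 120.3 in large and 60.9 to 84.3 in WT. With the local step taken out neither was called in dwarf (CYCB1;1 at 0.64, adjusted p = 0.059, and CDKB2;1 at 0.23, adjusted p = 0.389). In large CYCB1;1 (1.11, adjusted p = 0.0156), CDKB2;1 (0.67, adjusted p = 0.0444) and AUR1 (0.79, adjusted p = 0.0409), which encodes a mitotic kinase, rose by the same edgeR test. Of the 19870 genes tested, 773 were called higher in that comparison. With the step taken out 1 of the 6, CYCB1;1, was called in large (1.04, adjusted p = 0.0282). The 8 floral organ markers summed to 0.86 to 1.93 CPM in all 9 libraries, and AG, the 1 that could be tested, stood at 0.29 ± 0.06 CPM in dwarf and 0.78 ± 0.06 in WT (SD, n = 3 in each). The 6 root markers summed to 11.0 CPM in dwarf 1, mostly IRT1, and to 0.28 to 2.56 elsewhere. The part of tissue composition in the levels of the 38 genes was not tested.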

How the data were processed

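Total RNA was sequenced from 9 libraries in 3 groups of 3, with groups and replicate numbers as in the labels. Per the labels' protocols, libraries followed the TruSeq RNA version 2 guide, which does not mark strand, and were read as pairs on a DNBseq instrument. The submitters' processing notes name the tools Trim Galore 0.4.1 and STAR 2.7.0a and the build TAIR10. The sources used here do not give how reads were counted, nor with which annotation and strand. The authors deposited whole-number read counts per gene, with no normalization, 1 table per library, with 5 lines that name no gene, left out of library sizes and tests. They include reads outside genes (0.642 to 0.900% of all reads listed) and ambiguous reads (0.228 to 0.309%).

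The members and the gene lists were chosen with earlier results of these data known. Names, positions and sequence came from the RefSeq annotation of TAIR10.1, matched by locus identifier. Counts were scaled by TMM factors (0.935 to 1.05), filtered with filterByExpr and tested by the quasi-likelihood test of edgeR 4.0.16 in R 4.3.3, in 1 fit of the 3 groups without a block. Calls need an adjusted p under 0.05 (Benjamini-Hochberg, 19870 genes). The standard error divides the size of the log2 fold change by the root of F, and intervals are at 95%. CPM uses the library total times its TMM factor, log2 CPM a prior count of 2, and exon length the union of annotated exons. The script was tested on simulated data. Alternatives were DESeq2 size factors, upper-quartile factors, no filter, at least 1 CPM in 3 libraries, only the groups compared, DESeq2 1.42.0 with its Wald test, limma 3.58.1 with voom and quality weights, a block for the replicate number, the local step taken out, and each library left out.

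Named members are those called, the extremes of fold change of each complex in each comparison, and the highest and lowest per kb of each complex; members named by chromosome position, genes of the same subunit, and PSAE1, PSAE2, LHCB4.1, PSBX and PSBY were chosen after their values were seen. Other lists are named by every called gene and the 2 smallest p in dwarf against WT, and GLK2 was added after its values were seen. Overlaps over 30% of a gene with an annotated gene of the opposite strand, besides those named, were PSAG (61.4%), PSAE1 (34.1%) and LHCB6 (32.5%), and the LHCB1 genes share 1.51 to 4.44% of their 100 bp stretches with other LHCB1 genes or antisense genes, so these counts are uncertain.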

Additional observations from a re-analysis of the deposited data

How the results depend on the processing

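In dwarf against WT, with 1740 genes and 1 member called by edgeR as reported, upper-quartile factors called 2 members (1050 genes up and 762 down, against 1299 and 441), only the 2 groups 467 genes and 0 members, the DESeq2 Wald test 3184 and 12, voom 4626 and 30, and the local step taken out 797 genes. In large against WT (838 genes, 0 members) only the 2 groups called 2205 genes and 4 members, the Wald test 1833 genes, voom 4192 and 9, and the local step 298. Between dwarf and large (129 genes, 0 members) only the 2 groups called 0 genes, the Wald test 1706, voom 3781 with 6 members. Leaving out 1 library each gave 266 to 4477 genes and 0 to 30 members in dwarf against WT (the highest of both without dwarf 3), 9 to 1599 genes and 0 to 2 members in large against WT, and 0 to 3236 genes and 0 to 3 members between dwarf and large. Members' medians were -0.87 to -0.35, -0.44 to -0.23 and -0.51 to -0.03 in the same order, and kept their sign in every alternative run.

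Signs turned for the following values. In dwarf against WT, LHCB5, PSAD1 and PSAL were -0.031, -0.028 and -0.0079 with upper-quartile factors, -0.15, -0.040 and -0.042 with voom, and -0.63, -0.64 and -0.58 with the local step taken out. In large against WT, PSAN was -0.000764 with the block and -0.066 with voom, and LHCB5, PSAD1, PSAL and PSBQ2 were -0.43, -0.46, -0.34 and -0.32 with the local step taken out. Between dwarf and large, only the members with the highest and lowest fold change of each complex were followed through all alternatives. Of these, LHCB1.2, at 0.33 as reported, was -0.31 with voom, PSAD2 -0.058 with the block, -0.47 with voom and -0.22 with the step, and PSBR -0.26 with the step. Of the other members, LHCB1.3 (0.15 as reported), LHCB6 (0.061) and LHCB1.4 (-0.11) also turned with the step, to -0.029, -0.26 and 0.012. Leaving out 1 library each gave, in dwarf against WT, LHCB1.1 at -1.02 to 0.10, LHCB1.3 at -0.69 to 0.021, LHCB5 at -0.23 to 0.19, PSAD1 at -0.11 to 0.15, PSAD2 at -1.02 to 0.087, PSAF at -0.91 to 0.025 and PSAL at -0.055 to 0.12; in large against WT, PSAN at -0.26 to 0.27; between dwarf and large, LHCB1.2 at -0.42 to 0.63, PSAD2 at -0.68 to 0.42 and PSBR at -0.047 to 0.19. The cause of these changes was not tested.

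Replicate numbers were not taken to pair the samples. Deviations of libraries with the same number correlated at -0.24 to 0.43, and those of libraries with different numbers at -0.51 to 0.57. With so few libraries these values cannot decide whether samples of the same number were paired. With the replicate number as a block, 1263 genes and 0 members were called in dwarf against WT, 618 and 0 in large against WT, and 0 and 0 between dwarf and large. The smallest difference that 3 libraries a group can show was not measured.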
